A study of Mus musculus with 12 samples.

Results

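Metallothioneins and zinc transporters were followed as 10 listed genes: *Mt1*, *Mt2*, *Mtf1*, *Slc30a1*, *Slc30a2*, *Slc30a4*, *Slc39a4*, *Slc39a5*, *Slc39a10* and *Slc39a14*. They were found by matching gene identifiers to symbols in the RSEM gene tables of 12 mice, and all 10 were present among the 55401 genes listed. The tables come from whole kidneys of male C57BL6 mice aged 8 weeks. 6 mice received SK-124, an inhibitor of the salt-inducible kinases SIK2 and SIK3, at 40 mg/kg by 1 intraperitoneal injection. The other 6 received the vehicle, 15% 2-hydroxypropyl-beta-cyclodextrin. The paper describes SK-124 as dissolved in this vehicle in the methods of its kidney disease model. Each mouse gave 1 library, so the spread reported is that between mice. The interval between injection and kidney collection is not stated separately for these libraries, and no mouse was untreated or given zinc.

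Metallothioneins are small cysteine-rich proteins that bind zinc and copper. Their genes are classic targets of the zinc-sensing transcription factor MTF1, which binds metal response elements, and they also respond to glucocorticoids, cytokines and oxidants. Transporters of the SLC30 family move zinc out of the cytosol, to the outside of the cell or into vesicles, and those of the SLC39 family move zinc into the cytosol. *Slc30a1*, like the metallothioneins, is a known MTF1 target, while zinc is known to lower *Slc39a10* through MTF1.

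*Mt1* and *Mt2* lie side by side on chromosome 8 in GENCODE M21 (GRCm38), both on the plus strand. *Mt2* (ENSMUSG00000031762.7) spans chr8:94172664-94173568 and *Mt1* (ENSMUSG00000031765.8) spans chr8:94179082-94180327, which leaves 5513 bases between them. *Slc30a1* (ENSMUSG00000037434.7) spans chr1:191906767-191913247 on the plus strand. The promoter windows of these 3 genes are shown because all 3 genes are known MTF1 targets and their mRNAs did not move together. Each window is from RefSeq (GRCm38.p6), 5′ to 3′ on the gene's strand, and holds 250 bases before and 50 bases after the start that RefSeq gives. Capitals mark matches on either strand to the core of the metal response element, searched as TGCACNC or TGCGCNC. The windows are chr8:94178839-94179138 for *Mt1*, chr8:94172368-94172667 for *Mt2* and chr1:191906531-191906830 for *Slc30a1*.
Mt1: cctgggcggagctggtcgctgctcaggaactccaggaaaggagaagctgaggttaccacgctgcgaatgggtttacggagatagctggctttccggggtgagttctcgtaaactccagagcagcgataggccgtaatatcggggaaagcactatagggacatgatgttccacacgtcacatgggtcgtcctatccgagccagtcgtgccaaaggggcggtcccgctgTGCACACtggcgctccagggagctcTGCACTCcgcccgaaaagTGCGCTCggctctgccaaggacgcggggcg
Mt2: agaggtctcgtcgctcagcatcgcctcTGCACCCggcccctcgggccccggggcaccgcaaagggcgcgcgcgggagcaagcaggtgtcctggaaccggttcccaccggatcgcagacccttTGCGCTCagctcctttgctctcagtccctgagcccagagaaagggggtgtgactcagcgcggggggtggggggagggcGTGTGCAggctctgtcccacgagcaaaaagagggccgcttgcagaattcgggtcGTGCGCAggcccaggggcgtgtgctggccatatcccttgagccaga
Slc30a1: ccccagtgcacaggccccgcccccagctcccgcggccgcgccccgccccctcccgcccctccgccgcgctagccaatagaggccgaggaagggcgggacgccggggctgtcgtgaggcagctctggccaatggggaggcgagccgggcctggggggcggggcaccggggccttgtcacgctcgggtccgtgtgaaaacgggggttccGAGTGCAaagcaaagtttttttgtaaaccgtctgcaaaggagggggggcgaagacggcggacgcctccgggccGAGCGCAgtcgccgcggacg

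The *Mt1* window held 3 matches, starting at positions -23, 3 and 21 from RefSeq's start. The *Mt2* window held 4, at -223, -128, -50 and 5, and the *Slc30a1* window held 2, at -43 and 31. RefSeq's starts differ from those of GENCODE. The *Mt2* window ends at 94172667, where GENCODE starts the gene at 94172664, so all 4 *Mt2* matches lie before the GENCODE start. Counts and positions therefore hold for the RefSeq windows only. At least 3 matches stood in 1.97% of all 32851 promoter windows of this length, at least 4 in 0.517% and at least 2 in 7.11%. RefSeq windows were found for 8 of the 10 genes, 10 windows in all. *Slc39a4* and *Slc39a14* had none, so no promoter sequence of these genes was searched. The core was present in 6 of these 10 windows, against 25.7% of all windows: besides the windows shown, the *Slc30a4* window held 3 matches, that of *Slc30a2* 2 and 1 of the 2 windows of *Slc39a5* held 1. Neither of the 2 *Slc39a10* windows and not the *Mtf1* window held one. The GC content of the 3 windows shown was 60.7% for *Mt1*, 67.7% for *Mt2* and 73.0% for *Slc30a1*, and the core itself is rich in G and C.

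The 15-base glucocorticoid receptor palindrome was found in 0 of the 10 windows and in 0.00913% of all windows. Its 6-base arm AGAACA was found in the *Mtf1* window alone and in 19% of all windows. The palindromic cAMP response element was found in 0 of the 10 windows and in 1.79% of all windows. Its 5-base arm TGACG was found once each in windows of *Mt1*, *Mtf1* and *Slc39a5* and in 20.8% of all windows. These are matches of letters within 300 bases and do not show binding. The 15-base palindrome is so rare among all windows that its absence from 10 windows carries no information. Sites outside the windows were not searched.

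Expected counts summed to between 19244227 and 19771802 per mouse, and the biological coefficient of variation was 0.101. SK-124 mice 1 to 3 stood apart from the others in composition: their 10 most abundant genes held 44.4% to 46.8% of all counts, against 38.6% to 40.2% in SK-124 mice 4 to 6 and 39.9% to 43.2% in vehicle mice. No label names a batch, so each change below was also fitted with mice 1 to 3 alone and with mice 4 to 6 alone against all vehicle mice. The tissue carried its own markers: the summed TPM of 6 proximal tubule genes was 2526 to 2975 in vehicle mice and 2092 to 2572 in SK-124 mice, and 0 of the 6 passed the test. All 6 exocrine pancreas markers and 5 of 6 adrenal markers had fewer than 10 counts in every mouse. Elsewhere 1 thick ascending limb, 1 podocyte and 1 liver marker were higher, 1 endothelial and 1 leukocyte marker were lower, and of 5 collecting duct markers 1 was higher and 2 lower, while 0 of 3 distal convoluted tubule, 0 of 5 red blood cell and 0 of 1 tested fat markers passed. In whole kidney, fewer cells of a type and less RNA per cell cannot be told apart.

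Levels between genes are compared here as TPM, the authors' RSEM value scaled to transcript length. In vehicle mice *Mt1* was the most abundant of the 10 at 301 ± 53.0 TPM (SD, n = 6), followed by *Mt2* at 61.4 ± 12.5 (SD, n = 6). Every vehicle mouse had *Mt1* above *Mt2*, and the ranges of the 2 genes did not overlap. *Slc39a5* at 14.6 ± 2.12 TPM and *Slc30a2* at 12.7 ± 1.52 came next with overlapping ranges, then *Slc39a14* at 7.73 ± 1.51 and *Slc30a1* at 6.87 ± 1.11, whose ranges also overlapped (SD, n = 6 each). *Slc39a10* at 4.33 ± 0.82, *Slc30a4* at 3.32 ± 0.36 and *Mtf1* at 2.62 ± 0.40 TPM followed, each overlapping the next, though all 6 vehicle mice had them in this order. *Slc39a4*, an importer best known for zinc uptake in the intestine, was last at 0.20 ± 0.10 TPM (SD, n = 6).

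In SK-124 mice *Mt1* reached 981 ± 470 TPM and *Mt2* 384 ± 192 (SD, n = 6 each), while *Slc39a14* moved to the third place at 15.7 ± 3.15 TPM (SD, n = 6). By mean TPM over all 55401 listed genes, *Mt1* stood at place 161 in vehicle mice and 40 in SK-124 mice, and *Mt2* at 939 and 119. The ranges of *Slc39a14*, *Slc39a5* and *Slc30a2* overlapped with their neighbours in that order, but all 6 mice had *Slc39a14* above *Slc39a5*. Together the 2 metallothioneins rose from 363 ± 64.1 to 1365 ± 662 TPM (SD, n = 6 each), a 3.76-fold ratio of means (p = 0.00216, two-sided exact permutation test on log2 values, the smallest p that 6 against 6 mice allow).

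**Figure D1:**
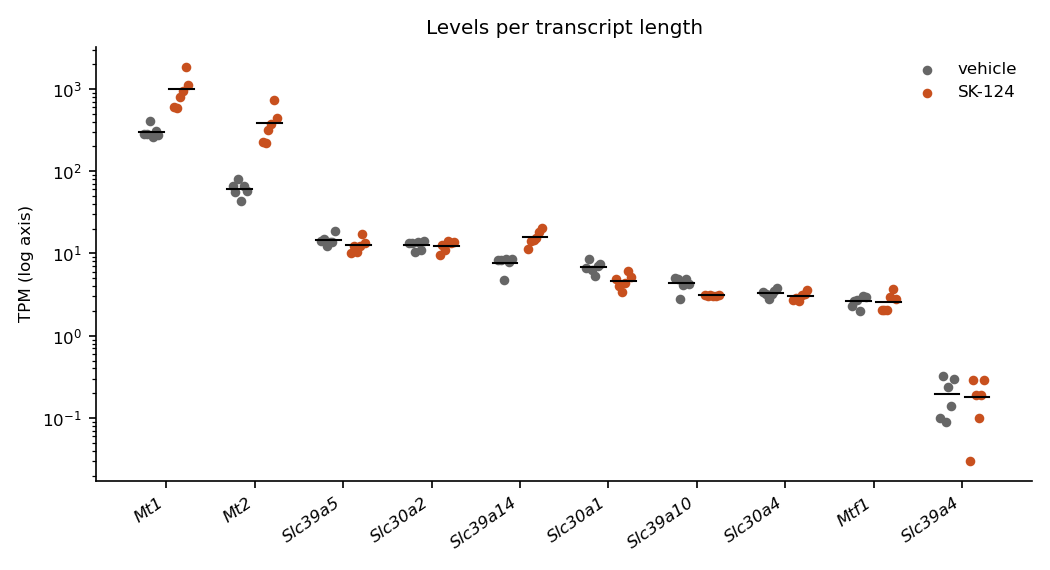
TPM (log axis) of the 10 genes in each mouse, ordered by the mean in vehicle mice; grey points are the 6 vehicle mice, orange points the 6 SK-124 mice and black lines the group means. *Mt1* and *Mt2* stand above the other 8 genes in both groups, and *Slc39a14* passes *Slc39a5* and *Slc30a2* in mean with SK-124.

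Changes between groups were tested with edgeR's quasi-likelihood test on rounded expected counts scaled with TMM, and FDR is the Benjamini-Hochberg adjusted p over all 14159 genes that passed the expression filter. Normalized CPM below means counts scaled to library size with the TMM factors. Of the 10 genes 9 passed the filter; *Slc39a4* did not, with 3 to 8 counts in vehicle and 2 to 13 in SK-124 mice. Of these 9, 3 rose (*Mt1*, *Mt2* and *Slc39a14*) and 2 fell (*Slc30a1* and *Slc39a10*) at an FDR under 0.05. Over all genes tested 24.4% passed, 10.8% higher and 13.5% lower, so calls were common in this comparison. Groups that did not overlap were found for the 3 genes that rose and for 0 of the 9 in the other direction, against 6.32% of all genes higher and 6.65% lower. The median log2 fold change was 0.09 over the 9 genes and -0.01 over all genes. With library totals alone as scaling the median of all genes moved to -0.12 and the share of calls that were higher from 44.5% to 20.3%, and with limma on log2(TPM + 1) these were -0.11 and 19%; the 5 calls and their directions held under both.

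**Figure D2:**
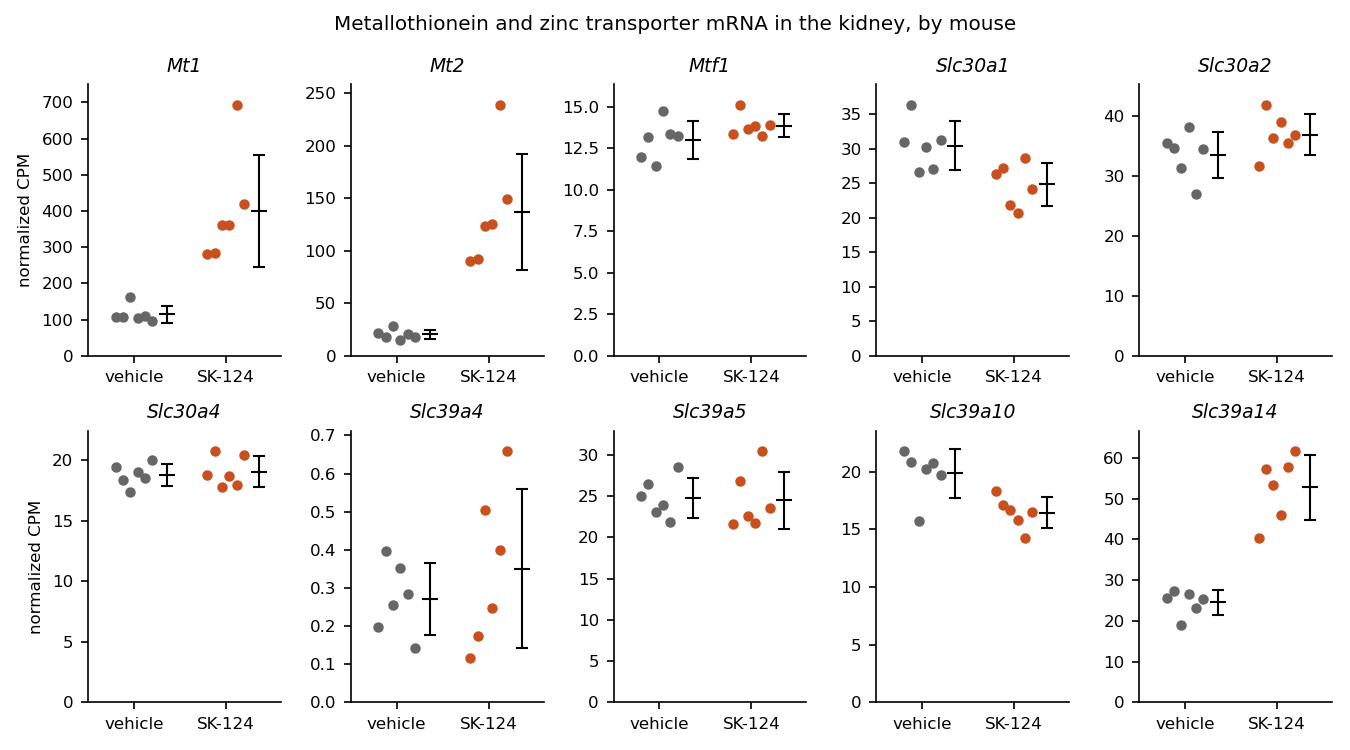
Normalized CPM of each of the 10 genes in the 6 vehicle mice (grey) and the 6 SK-124 mice (orange), with the group mean and SD in black; each panel starts at 0. *Mt1*, *Mt2* and *Slc39a14* show no overlap between groups, *Slc30a1* and *Slc39a10* are lower with SK-124 with overlapping groups, and SK-124 mouse 5 is highest for both metallothioneins.

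*Mt1* and *Mt2* encode the metallothioneins that most tissues make. *Mt1* was at 97.2, 107 and 164 normalized CPM (lowest, median and highest) in vehicle mice and at 280, 361 and 694 in SK-124 mice. Every SK-124 mouse was above every vehicle mouse, with vehicle mouse 3 the highest of its group and SK-124 mouse 5 far above its own. *Mt1* rose by 1.80 on the log2 scale (standard error 0.19, 95% interval 1.4 to 2.21, FDR = 2.27e-06, edgeR), a 3.49-fold rise. Without SK-124 mouse 5 it was 1.57 and without vehicle mouse 3 it was 1.93. Its change was larger in size than that of 99.3% of the genes tested.

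*Mt2* was at 15.2, 19.7 and 28.4 normalized CPM in vehicle mice and at 90.9, 125 and 239 in SK-124 mice (lowest, median and highest). Again the groups did not overlap and the same 2 mice were the highest of their groups. *Mt2* rose by 2.74 on the log2 scale (standard error 0.21, 95% interval 2.29 to 3.19, FDR = 5.55e-08, edgeR), a 6.68-fold rise. For both genes the exact permutation p was 0.00216, the smallest possible. An antisense gene, *Gm45774*, overlaps *Mt2* with a mean of 0.0125 normalized CPM.

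The 3 SK-124 mice with the larger share of counts in their 10 most abundant genes had the lower metallothionein values. *Mt1* was at 280 to 360 normalized CPM in SK-124 mice 1 to 3 and at 362 to 694 in mice 4 to 6, and *Mt2* at 90.9 to 124 and 126 to 239. Against all vehicle mice, *Mt1* had a log2 fold change of 1.43 with mice 1 to 3 (FDR = 9.20e-06, edgeR) and 2.11 with mice 4 to 6 (FDR = 2.75e-06), and *Mt2* of 2.32 (FDR = 1.73e-07) and 3.07 (FDR = 9.74e-08). The part of library composition in this spread was not tested, and the rise passed the test in both sets.

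*Mt1* and *Mt2* did not rise by the same amount. The ratio of *Mt1* to *Mt2* in normalized CPM was 4.87, 5.55 and 6.80 in vehicle mice and 2.81, 2.90 and 3.08 in SK-124 mice (lowest, median and highest). No SK-124 mouse reached the lowest ratio of the vehicle mice. The mean log2 ratio was 2.49 ± 0.17 (SD, n = 6) in vehicle mice and 1.56 ± 0.06 (SD, n = 6) in SK-124 mice, and fell by 0.93 (p = 0.00216, two-sided exact permutation test, the smallest possible). The ratio varied less in SK-124 mice, although the levels of the 2 genes varied more. Their coefficient of variation was 21.2% and 22% in vehicle mice and 38.3% and 40.1% in SK-124 mice. *Mt2* had 302 to 556 counts in vehicle mice and 1569 to 4778 in SK-124 mice, so counting noise is larger in the vehicle ratios. Its part in the difference in spread was not tested. RSEM gave a posterior SD of 0 to the counts of all 10 genes in every mouse, so no reads were divided between these 2 similar mRNAs, or between any of the 10 and another gene.

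**Figure D3:**
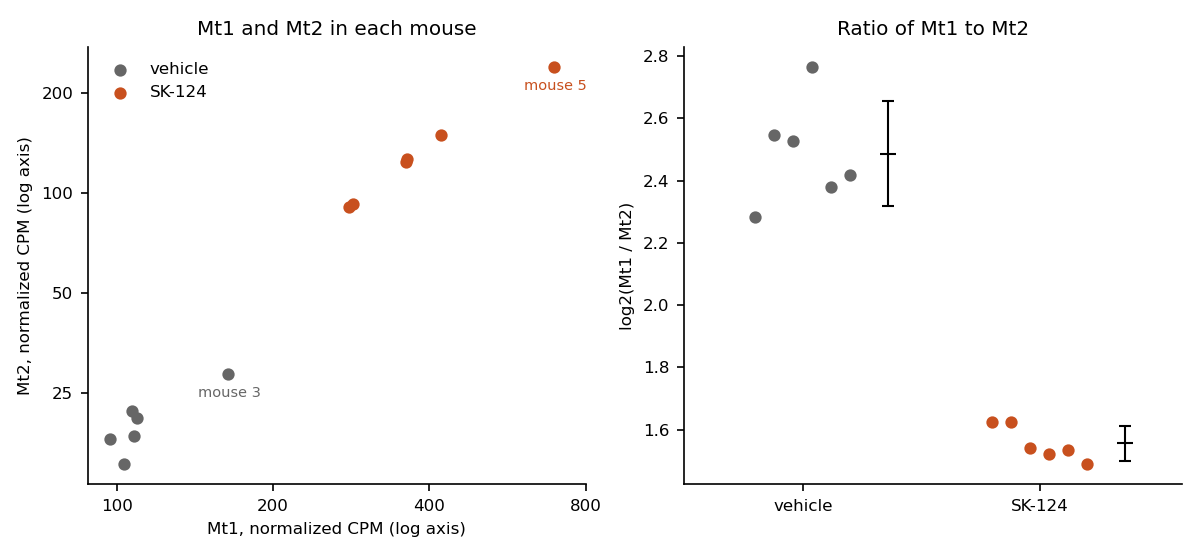
Left, *Mt2* against *Mt1* in normalized CPM (both log axes), 1 point per mouse, grey for vehicle and orange for SK-124; right, log2 of the *Mt1* to *Mt2* ratio in each mouse with the group mean and SD in black. SK-124 mice lie higher on both axes, with mouse 5 the highest, and their log2 ratios (mean 1.56) lie below all vehicle ratios (mean 2.49).

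Within groups *Mt1* and *Mt2* were compared across the 6 mice on log2(CPM + 0.5), as 2 of 4 correlations computed. In SK-124 mice Pearson's r was 0.996 (exact permutation p = 0.00139, adjusted p = 0.00556) and Spearman's rho 1 (exact permutation p = 0.00278, adjusted p = 0.0111). Without the 2 mice farthest from the median r was 0.999. In vehicle mice r was 0.838 (exact permutation p = 0.0417, adjusted p = 0.0833) and rho 0.771 (exact permutation p = 0.103, adjusted p = 0.206), and r was 0.793 without the 2 farthest mice. Without vehicle mouse 3 alone r was 0.461 (exact permutation p = 0.475). The within-group relation of *Mt1* with *Slc30a1* did not pass in either group (r = -0.551, adjusted p = 0.369 in vehicle mice and r = 0.265, adjusted p = 0.651 in SK-124 mice, exact permutation tests). Its rho was -0.6 (adjusted p = 0.322) and 0.0857 (adjusted p = 0.919, exact permutation tests), and r was -0.098 and -0.531 without the 2 farthest mice. Without vehicle mouse 2 alone r in vehicle mice was -0.758 (exact permutation p = 0.025, not adjusted), the only 1 of 7 alternatives that passed. With each vehicle mouse left out in turn r ranged from -0.758 to -0.071.

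*Mtf1* encodes the zinc-sensing transcription factor itself. It was at 11.4, 13.2 and 14.8 normalized CPM in vehicle mice and at 13.2, 13.8 and 15.1 in SK-124 mice (lowest, median and highest), and the groups overlapped. The log2 fold change was 0.09 (95% interval -0.05 to 0.23, FDR = 0.362, edgeR), so a rise above 1.18-fold lay outside the interval; with library totals as scaling the value was -0.02. The mRNA level says nothing of the protein's activity. The gene overlaps *1110065P20Rik* on the opposite strand, whose log2 fold change was 0.03.

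Among the exporters, *Slc30a1* encodes ZnT1, the transporter of the plasma membrane. It was at 26.7, 30.7 and 36.4 normalized CPM in vehicle mice and at 20.7, 25.3 and 28.7 in SK-124 mice (lowest, median and highest). SK-124 mice were lower in median, and the groups overlapped. *Slc30a1* fell by 0.29 on the log2 scale (standard error 0.09, 95% interval -0.48 to -0.11, FDR = 0.0223, edgeR; exact permutation p = 0.0152). The call was lost without vehicle mouse 2 (FDR = 0.0581), SK-124 mouse 3 (FDR = 0.0556) or SK-124 mouse 4 (FDR = 0.0530), and with SK-124 mice 1 to 3 alone (-0.28, FDR = 0.0957) or 4 to 6 alone (-0.31, FDR = 0.0858). An antisense gene, *1700034H15Rik*, overlaps *Slc30a1* and fell too, by a log2 fold change of 0.93 (FDR = 0.00191, edgeR) at a mean of 0.886 normalized CPM. The use of strand is not given in the sources used here; RSEM's posterior SD was 0 for *Slc30a1* in all 12 mice, so its counts were not divided with the antisense gene. In the main fit *Mt1* rose and *Slc30a1* fell, and both are known MTF1 targets. *Slc39a10*, which zinc is known to lower through MTF1, fell too, by 0.27. The part of MTF1 in these changes was not tested.

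The other exporters of the 10 genes did not pass. *Slc30a2*, which loads zinc into vesicles, was at 26.9, 34.5 and 38.1 normalized CPM in vehicle mice and at 31.6, 36.6 and 41.8 in SK-124 mice (log2 fold change 0.14, 95% interval -0.03 to 0.31, FDR = 0.243, edgeR). *Slc30a4*, also a vesicle transporter, was at 17.4, 18.8 and 20.0 and at 17.8, 18.7 and 20.7 (log2 fold change 0.02, 95% interval -0.10 to 0.14, FDR = 0.842, edgeR). Both sets of ranges overlapped. The sign of *Slc30a4* turned with library totals as scaling and on log2(TPM + 1), and that of *Slc30a2* on log2(TPM + 1) but not with library totals.

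Among the importers, *Slc39a14* (chr14:70303469-70351425, minus strand) encodes ZIP14, which carries zinc, iron and manganese and is known to be induced in the liver by interleukin-6. It was at 18.9, 25.5 and 27.5 normalized CPM in vehicle mice and at 40.4, 55.4 and 61.7 in SK-124 mice (lowest, median and highest). All 6 SK-124 mice were above all 6 vehicle mice. *Slc39a14* rose by 1.1 on the log2 scale (standard error 0.10, 95% interval 0.89 to 1.32, FDR = 5.09e-07, edgeR), a 2.15-fold rise, with an exact permutation p of 0.00216, the smallest possible. The rise was 1.04 with SK-124 mice 1 to 3 and 1.17 with mice 4 to 6.

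*Slc39a10* (chr1:46807544-46892852, minus strand) encodes ZIP10, an importer of the plasma membrane. It was at 15.7, 20.5 and 21.8 normalized CPM in vehicle mice and at 14.3, 16.6 and 18.3 in SK-124 mice (lowest, median and highest). The groups overlapped through vehicle mouse 3 alone, which had the lowest value of its group; the other 5 vehicle mice, from 19.7 upward, were above all SK-124 mice. *Slc39a10* fell by 0.27 on the log2 scale (standard error 0.08, 95% interval -0.44 to -0.11, FDR = 0.0165, edgeR; exact permutation p = 0.0152). Without vehicle mouse 3 it fell by 0.33 (FDR = 0.000721). With SK-124 mice 1 to 3 alone it was at -0.19 and did not pass (FDR = 0.216), and with mice 4 to 6 alone it fell by 0.35 (FDR = 0.0295). The noncoding gene *Gm28151* lies within it on the same strand, at a mean of 0.498 normalized CPM.

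*Slc39a5*, an importer of the basolateral membrane known from pancreas, intestine and kidney, was at 21.8, 24.5 and 28.5 normalized CPM in vehicle mice and at 21.7, 23.1 and 30.5 in SK-124 mice (log2 fold change -0.02, 95% interval -0.21 to 0.17, FDR = 0.907, edgeR). The groups overlapped over nearly their whole range. *Slc39a5* overlaps *Ankrd52* on the opposite strand, whose log2 fold change was 0.06. *Slc39a4* was at 0.142 to 0.396 normalized CPM in vehicle mice and at 0.116 to 0.659 in SK-124 mice, too few counts for a comparison.

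The other genes of the 3 families were followed in full. Neither of the 2 remaining metallothionein genes was tested: *Mt3*, known from brain, had 2 to 10 counts per mouse and *Mt4* had 0 in every mouse. Of the other 7 SLC30 genes 4 were tested, of which 1 rose and 0 fell. Of the other 10 SLC39 genes 8 were tested, of which 1 rose and 1 fell. Over the 12 tested genes of both families 2 rose and 1 fell, but 1 rose and 3 fell with library totals as scaling, and 1 rose and 2 fell on log2(TPM + 1). The median log2 fold change was 0.03 for these SLC30 genes and -0.02 for these SLC39 genes, beside -0.01 for all genes tested. The shares called, 1 of 4 and 2 of 8, stood near the 24.4% of all genes.

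*Slc30a5*, which carries zinc into the secretory pathway, had no overlap between groups. It was at 36.1, 38.6 and 41.7 normalized CPM in vehicle mice and at 50.8, 55.3 and 58.2 in SK-124 mice (lowest, median and highest), and rose by 0.49 on the log2 scale (standard error 0.05, FDR = 2.39e-06, edgeR). *Slc39a8*, which encodes ZIP8, a close relative of ZIP14, was at 38.7 to 46.1 and at 44.9 to 54.8. It rose by 0.23 on the log2 scale (FDR = 0.0137, edgeR) but did not pass with library totals alone (0.12, FDR = 0.191) or on log2(TPM + 1) (0.07, FDR = 0.591), nor with SK-124 mice 4 to 6 alone (0.16, FDR = 0.186). *Slc39a3* was at 18.0 to 20.7 and at 15.5 to 18.1, and fell by 0.20 on the log2 scale (FDR = 0.0215, edgeR). That call was lost without vehicle mouse 6 (FDR = 0.0531), SK-124 mouse 3 (FDR = 0.0540) or SK-124 mouse 4 (FDR = 0.0513), and with SK-124 mice 1 to 3 alone (FDR = 0.125) or 4 to 6 alone (FDR = 0.0858).

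**Figure D4:**
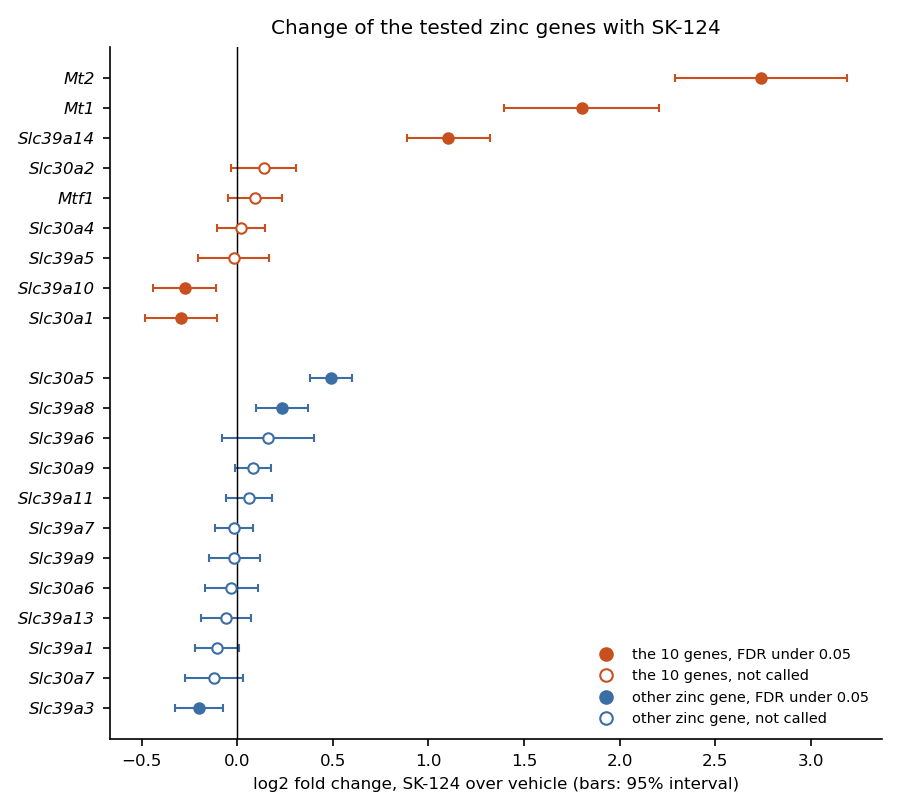
Log2 fold change of SK-124 over vehicle with its 95% interval for the 9 tested genes of the 10 (orange) and the 12 other tested zinc genes (blue); filled points passed an FDR under 0.05. *Mt2*, *Mt1* and *Slc39a14* lie farthest to the right at 2.74, 1.80 and 1.1, and *Slc30a1*, *Slc39a10* and *Slc39a3* are the filled points left of 0.

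Other metal genes were read from the same fit. Of 12 copper genes 1 rose, the plasma copper protein gene *Cp* (log2 fold change 0.49, FDR = 0.000549, edgeR), and 0 fell; without vehicle mouse 3, 2 rose and 1 fell. Of 13 iron genes 3 rose and 1 fell, while 2 rose and 3 fell with library totals as scaling. The 2 with the largest change were *Hmox1*, the inducible heme oxygenase (log2 fold change 3.39, FDR = 2.54e-07), and *Ncoa4*, the receptor for ferritin turnover (1.03, FDR = 3.55e-10). *Hmox1* was at 18.5 to 23.1 normalized CPM in vehicle mice. In SK-124 mice it spread widely, from 133 to 519 (215 ± 150, SD, n = 6). The median was 0.02 for the copper genes and -0.00 for the iron genes. In all, 11 of the 12 copper and 9 of the 13 iron genes did not pass. Among all genes tested 24.4% passed, 10.8% higher and 13.5% lower.

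Targets of 4 signals known to induce metallothioneins or *Slc39a14*, or to lie downstream of SIK inhibition, were set beside them. The lists were chosen with earlier results of these data known. Of all genes tested 10.8% passed higher and 13.5% lower. Of 9 tested glucocorticoid receptor targets 9 rose, with a median log2 fold change of 2.42; *Zbtb16* (5.09, FDR = 3.48e-12) and *Ddit4* (4.15, FDR = 4.64e-13) changed most. Of 10 tested STAT3 and acute phase genes 6 rose and 0 fell, with a median of 1.0. *Socs3* (3.28, FDR = 1.61e-10) and *Osmr* (1.92, FDR = 3.29e-08) changed most. With SK-124 mice 1 to 3 only, 4 of the 10 rose, with a median of 0.87. *Saa1* and *Saa2* of this list had fewer than 10 counts in every mouse and were not tested. *Hp*, which rose, was at only 0.153 to 0.948 normalized CPM in vehicle mice. Of 9 CREB targets 8 rose and 0 fell, with a median of 1.74, led by *Nr4a3* (5.20, FDR = 3.26e-09) and *Nr4a2* (3.6, FDR = 1.12e-05). These 2 genes were near the floor in vehicle mice, at 0 to 0.284 and 0.204 to 0.948 normalized CPM. With at least 10 counts required in every mouse, 6 of 7 tested CREB targets rose, with a median of 0.94. Of 8 tested NRF2 targets 2 rose and 1 fell, with a median of 0.13; *Hmox1*, which is on this list too, rose and *Osgin1* fell by 1.0 (FDR = 5.33e-07). Many of these genes are targets of more than 1 signal, and their part in the metallothionein change was not tested.

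**Figure D5:**
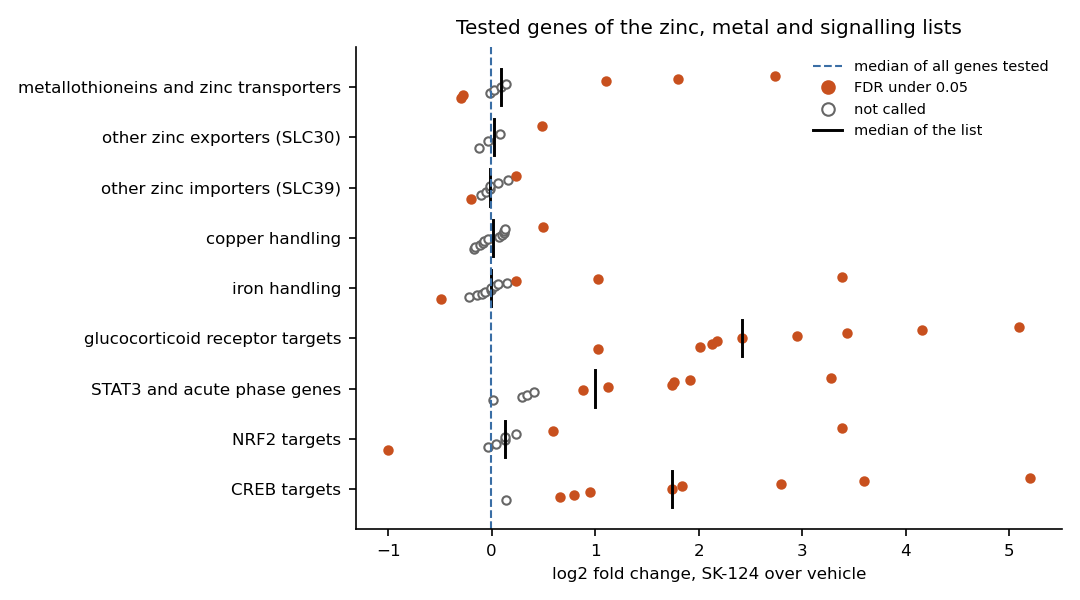
Log2 fold change of SK-124 over vehicle for each tested gene of the zinc, copper, iron and signalling lists; orange points passed an FDR under 0.05, open points did not, black bars are list medians and the dashed line is the median of all genes tested. The zinc, copper and iron lists centre near 0 with a few called genes, and the glucocorticoid receptor and CREB lists have medians of 2.42 and 1.74.

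The genes that varied most like the metallothioneins from mouse to mouse were sought among 13008 genes, after each group's mean was removed from log2(CPM + 0.5). Over the 12 mice Pearson's r with the mean of *Mt1* and *Mt2* was highest for *Nfkbib* (0.948), *Znhit2* (0.935), *Acaa1b* (0.931), *Dap3* (0.930) and *Rpia* (0.921). None of these 5 passed the test between groups, and the mice share the libraries and their composition. Among the 10 genes r with the metallothioneins was -0.774 for *Slc39a10*, -0.578 for *Mtf1*, -0.034 for *Slc30a1* and 0.060 for *Slc39a14*. Vehicle mouse 3 and SK-124 mouse 5, the highest of their groups for both metallothioneins, were the lowest for *Slc39a10* and *Mtf1*. *Slc39a10* was at 15.7 and 14.3 normalized CPM in these mice, and *Mtf1* at 11.4 and 13.2. The negative r values were not computed without them. For *Slc30a1* the 5 most similar genes were *Cluh* (0.940), *Rngtt* (0.932), *Eps8* (0.917), *Rcor1* (0.912) and *Mia3* (0.910). These values describe 12 libraries and carry no test.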

How the data were processed

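Whole-kidney RNA of 12 mice was sequenced, 1 library per mouse. Per the submitters' processing notes the tools were FastQC, STAR 2.7.2b, RSEM 1.3.0 and DESeq2, with build mm10; the annotation and the use of strand are not given in the sources used here. The authors deposited RSEM gene tables with expected counts (estimated counts per gene, not normalized) and TPM, with RSEM's posterior SD of each count; the deposited FPKM values were not used beyond a check of units. Groups came from the sample labels.

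Of the 55401 identifiers 55141 matched GENCODE M21 with or without their version. Expected counts were rounded, scaled with TMM, filtered with filterByExpr and fitted with edgeR (glmQLFit, glmQLFTest), replicate numbers unused. A standard error is the fold change (log2) over the root of its F statistic. Single values were compared with two-sided exact permutation tests over 924 assignments, on log2(CPM + 0.5) for genes. Likeness was computed for genes averaging 1 CPM or more. The pipeline was tested on simulated counts. Library totals were close to each other, and the precision of rare mRNAs such as Slc39a4 is limited by depth. Libraries of the same group were distinct, with a chi-square over its degrees of freedom of 4.69 or more in 30 pairs.

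The 10 genes and all lists were chosen with earlier results of these data known. All 10 genes are described. Of the other zinc genes those with an FDR under 0.05 are named, and from each copper, iron and signalling list the 2 with the largest change among those. Genes overlapping a member, and the antisense gene at Slc30a1, were chosen with values in view. The alternatives comprised library totals or RLE size factors in place of TMM, DESeq2, other filters, unrounded counts, limma on log2(TPM + 1) and log2(TPM + 0.1), the replicate number as a block, each mouse left out, and SK-124 mice 1 to 3 or 4 to 6 only. Software was Python 3.11.15 with DESeq2 1.42.0, limma 3.58.1 and edgeR 4.0.16 under R 4.3.3.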

Additional observations from a re-analysis of the deposited data

Results flagged for a closer look

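In 26 sets of 6 values (the tested genes of the 10, the 3 other called zinc genes and the metallothionein ratio, in each group), 4 values lay far from the other 5 mice of their group by Dixon's ratio at its 95% critical value. Chance gives about 1 such value in 20 sets. *Mt1* in vehicle mouse 3 was at 164 normalized CPM, where the other 5 vehicle mice were at 97.2 to 109. *Mt1* in SK-124 mouse 5 was at 694, above a next value of 420. *Slc39a10* in vehicle mouse 3 was at 15.7, below a next value of 19.7, so the same vehicle mouse was high for *Mt1* and low for *Slc39a10*. *Mtf1* in SK-124 mouse 2 was at 15.1.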

How the results depend on the processing

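The rises of *Mt1*, *Mt2* and *Slc39a14* passed under all 23 alternatives, with log2 fold changes from 1.43 to 2.11, 2.32 to 3.07 and 0.93 to 1.17, and the change in the *Mt1* to *Mt2* ratio passed under its 14 (-0.97 to -0.87 with a mouse left out). The number of genes called was 2960 to 3942 with a mouse left out (the highest without vehicle mouse 3) and 2298 with SK-124 mice 1 to 3 only, beside 3453. Of the 10 genes 4 to 5 passed with a mouse left out, and 3 with SK-124 mice 1 to 3 only, which enter fewer samples. Of the other zinc genes 2 to 3 passed with a mouse left out and 1 with SK-124 mice 4 to 6 only.

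Of the 9 tested genes, signs turned for *Mtf1*, *Slc30a2*, *Slc30a4* and *Slc39a5*, which passed under 0 of the alternatives. With library totals *Mtf1* was at -0.0229 and *Slc30a4* at -0.0945. On log2(TPM + 1) and log2(TPM + 0.1) *Mtf1* was at -0.0215 and -0.0341, *Slc30a2* at -0.0354 and -0.0383, and *Slc30a4* at -0.105 and -0.134. *Slc39a5* was at 0.0312 with SK-124 mice 4 to 6 only. With a mouse left out *Slc30a4* ranged from -0.00487 to 0.0398 and *Slc39a5* from -0.0914 to 0.0245, and the r of *Mt1* with *Slc30a1* in SK-124 mice from -0.653 to 0.504, negative without mouse 5 alone. The cause of these shifts was not tested.

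With the replicate number as a block 3466 genes and 5 of the 10 passed, and the *Mt1* to *Mt2* ratio changed by the same -0.93 (blocked exact permutation p = 0.0312, the smallest 6 pairs allow). The numbers did not pair the mice: same-numbered mice deviated together with correlations from -0.131 to 0.217. Depth limits *Slc39a4*, *Mt3* and other genes with few counts.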
